A study of Mus musculus with 12 samples.

Results

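The genes described here are 31 genes of cholesterol and fatty acid synthesis and of the SREBP system that controls them, chosen by name from the 30265 gene symbols in the table. They are 17 enzymes of the sterol pathway, 6 regulators and sterol carriers, and 8 enzymes that make acetyl-CoA and fatty acids. RNA was sequenced from intestinal epithelial cells of C57Bl/6 mice carrying Sox9-GFP, a reporter whose green fluorescence follows the transcription factor Sox9. The cells were sorted by fluorescence into 4 populations labelled Sox9 High, Low, Sublow and Negative, with 3 libraries each, lettered A, B and C, from 12000 cells a library. Apart from the sort gate, the labels give the 4 groups the same strain, cell type and library kit, and name no treatment, age or gut segment. They do not say whether the libraries of a population came from separate mice, so the p-values measure the spread between libraries, which may be technical.

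Animal cells make cholesterol from acetyl-CoA through mevalonate, farnesyl diphosphate, squalene and lanosterol, and make fatty acids from the same acetyl-CoA through malonyl-CoA. SREBP2, encoded by Srebf2, mainly drives the sterol genes, and SREBP1, encoded by Srebf1, mainly drives the fatty acid genes. Scap carries both precursors from the endoplasmic reticulum to the Golgi for cleavage when sterols are scarce, and the Insig proteins hold Scap back when sterols are plentiful. In the gut, crypt cells divide and give rise to absorptive enterocytes, which take up dietary sterol and fat, and to secretory cells, among them enteroendocrine cells. The Sox9 reporter has been used to part these cells: its Low cells are known to be rich in stem cells and its High cells in enteroendocrine cells.

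SREBPs bind the sterol regulatory element and the E-box CACGTG, and at sterol gene promoters they usually act beside NF-Y, which binds CCAAT. Promoter sequence was taken from RefSeq on GRCm38.p6 as windows of 300 bases, from 250 before to 50 after a start site, and 25 of the 31 genes matched at least 1 window. On either strand, CCAAT was found in 21 of these 25 genes, or 84%, against 41.1% of all 27025 genes with a window. CACGTG was found in 5 of 25, Hsd17b7, Sc5d, Dhcr7, Insig1 and Scap, or 20%, against 8.09% of all genes. By where the mean was highest, CACGTG was found in 1 of 10 genes highest in High, 0 of 3 in Low, 1 of 5 in Sublow and 3 of 7 in Negative, and CCAAT in 9, 2, 4 and 6 of the same genes. TCACNCCAC, a spelling of the sterol regulatory element, was found in Hmgcs1 alone among the 25, against 1.44% of all genes. Such matches are descriptions of letters, not binding sites. The 250 bases before the start are printed for 4 genes whose levels part the populations in different ways: Hmgcs1 and Cyp51 were highest in High, Sc5d in Negative, and Fasn was lowest in Negative. Capitals mark matches to the 3 motifs (ATTGG is CCAAT on the other strand), and each line runs 5′ to 3′ on the strand of the gene.
Hmgcs1: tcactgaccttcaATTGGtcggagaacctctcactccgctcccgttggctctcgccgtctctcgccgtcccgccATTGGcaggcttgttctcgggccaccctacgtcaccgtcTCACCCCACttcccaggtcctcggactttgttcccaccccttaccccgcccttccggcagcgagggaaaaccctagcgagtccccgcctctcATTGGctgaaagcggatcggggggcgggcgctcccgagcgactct
Cyp51: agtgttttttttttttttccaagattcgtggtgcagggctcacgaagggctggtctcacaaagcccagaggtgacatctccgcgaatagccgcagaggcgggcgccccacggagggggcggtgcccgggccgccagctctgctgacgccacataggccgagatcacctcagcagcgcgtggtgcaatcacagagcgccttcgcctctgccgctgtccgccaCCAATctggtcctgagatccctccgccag
Sc5d: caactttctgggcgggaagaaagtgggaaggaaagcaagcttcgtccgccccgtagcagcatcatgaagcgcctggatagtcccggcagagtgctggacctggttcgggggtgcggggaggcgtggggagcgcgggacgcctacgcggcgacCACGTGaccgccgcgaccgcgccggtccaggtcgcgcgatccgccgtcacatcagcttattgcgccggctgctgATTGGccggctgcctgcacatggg
Fasn: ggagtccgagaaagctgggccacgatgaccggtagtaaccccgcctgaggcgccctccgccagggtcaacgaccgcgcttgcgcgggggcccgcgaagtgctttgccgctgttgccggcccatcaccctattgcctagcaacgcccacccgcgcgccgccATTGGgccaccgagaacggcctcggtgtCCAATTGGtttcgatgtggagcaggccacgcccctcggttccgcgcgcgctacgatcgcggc
The Hmgcs1 stretch, chr13:119690101-119690350 on the plus strand, holds TCACNCCAC 137 bases before the start and CCAAT, on the minus strand, at 237, 176 and 45 bases before it. The Cyp51 stretch, chr5:4104698-4104947 on the minus strand, holds CCAAT 29 bases before the start. The Sc5d stretch, chr9:42264301-42264550 on the minus strand, holds CACGTG at 98 and CCAAT at 24 bases before the start. The Fasn stretch, chr11:120824548-120824797 on the minus strand, holds CCAAT at 90, 62 and 59 bases before the start, and the last pair overlap on opposite strands. In the GENCODE annotation, Hmgcs1 starts at 119690379 and Sc5d at 42264256, both downstream of these RefSeq starts. Cyp51 starts there at 4104746, upstream of its RefSeq start. The distances of these genes hold for the RefSeq starts only.

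Values are normalised read counts, that is reads divided by a size factor for each library. The libraries held 11630042 to 17046944 reads. Normalised totals were lowest in Low, at 12343296 to 13150464, and highest in Negative, at 17445846 to 20592116, with High at 13316808 to 13411440 and Sublow at 14540889 to 16635937. Sox9 itself was ordered as the gates are named, at 20262 ± 1220.2 (mean ± SD, n = 3) in High and 6601 ± 921 in Low, beside 2084 ± 897 in Sublow and 604 ± 191 in Negative. Summed markers also parted the populations: 7 enteroendocrine genes gave 363414 to 573439 in High against 37347 to 75153 in Low, and 7 enterocyte genes gave 542040.0 to 843301 in Negative against 13101 to 41674 in Low. The 6 stem cell genes were highest in Low, at 60694 to 80144, and no enteroendocrine, enterocyte or stem marker was at 0 throughout a population. In such bulk samples, fewer cells of a type and less RNA per cell cannot be told apart. The T and B cell genes summed to 110.0 to 221 and the myeloid genes to 64.2 to 193 over all 12 libraries.

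All 31 genes passed the filter on low values, a normalised count of at least 10 in at least 3 libraries, as did 16577 genes in all. A gene was called where its adjusted p in limma was below 0.05 over those 16577 genes. Of the 31 genes, 22 differed somewhere among the 4 populations, next to 69.5% of all genes tested, a share near the background. Mvk, Pmvk, Idi1 and Hsd17b7 were not among them (adjusted p of 0.0504 to 0.0890, limma F test), though each was called between a pair of populations below. The mean was highest in High for 15 of the 31 genes and lowest in Low for 17. By role, 10 of the 17 sterol enzymes were highest in High and 12 were lowest in Low, while 5 of the 8 acetyl-CoA and fatty acid enzymes were lowest in Negative.

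**Figure D1:**
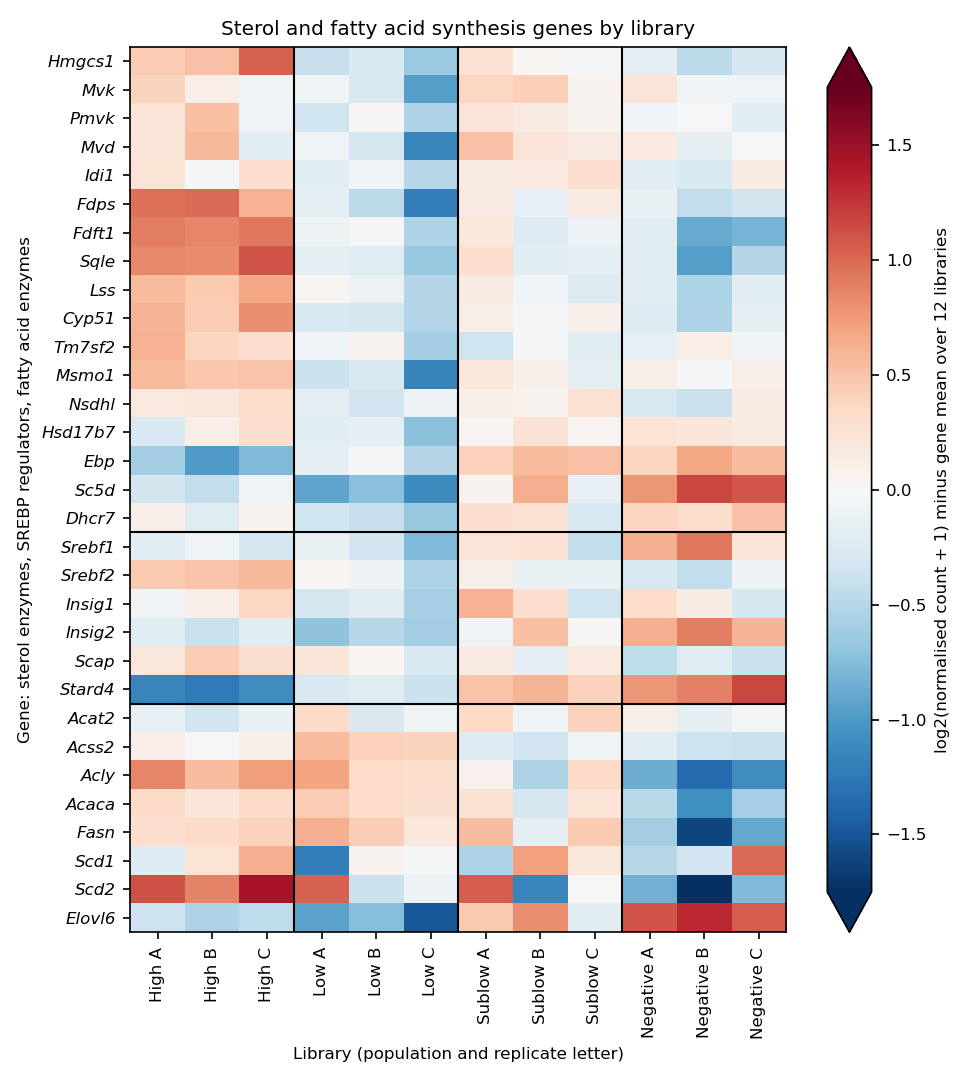
Each of the 31 genes (rows, in pathway order and split into sterol enzymes, regulators and fatty acid enzymes) in each of the 12 libraries (columns), as log2(normalised count + 1) minus the mean of the gene over the libraries. Red marks High in the rows from Fdps to Msmo1 and Negative in the rows of Sc5d, Stard4 and Elovl6, while Acly, Acaca and Fasn are blue in Negative, and Low C is the bluest library for 11 of the 17 sterol enzymes.

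High against Low compared the strongest reporter population with the population richest in stem cell markers. Sterol enzymes from the head of the pathway, the squalene steps and lanosterol demethylation were higher in High: Fdps by 2.76-fold, Sqle by 2.42-fold, Hmgcs1 by 2.16-fold, Fdft1 by 2.15-fold and Cyp51 by 1.97-fold. Of the 31 genes 12 were higher and 3 lower, next to 23.6% of all genes higher and 19.3% lower. The 17 sterol enzymes held 11 of the higher calls and 1 of the lower, with a median log2 difference of 0.64 against 0.10 over all genes tested. Srebf2 was the other gene higher in High, and Ebp, Stard4 and Acss2 were lower.

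Hmgcs1, the synthase that makes HMG-CoA, had normalised counts of 3284, 3442 and 4926 in High A, B and C and 1809, 2001 and 1527 in Low, beside 2862, 2465 and 2344 in Sublow and 2133, 1755 and 1951 in Negative. Every High library lay above every other library, and High C was the highest. The log2 difference between High and Low was 1.11 ± 0.17 (SE), with an adjusted p of 0.000258 in limma.

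In the middle of the pathway, farnesyl diphosphate is made and joined into squalene. Fdps, farnesyl diphosphate synthase, read 1648, 1679 and 1286 in High and 748, 615 and 368 in Low, beside 932, 766 and 938 in Sublow and 769.8, 629 and 674 in Negative. The High libraries did not overlap those of any other population, and the log2 difference from Low was 1.46 ± 0.22 (adjusted p = 0.000276, limma). Fdft1, squalene synthase, read 1553, 1505 and 1591 in High against 789, 826 and 575 in Low, with 946, 716 and 779 in Sublow and 733, 454 and 474 in Negative. Its High libraries lay close together, with an SD of 43.5 about a mean of 1549.6, and its log2 difference from Low was 1.10 ± 0.20 (adjusted p = 0.000788, limma). Exon annotation of Fdps overlaps that of Gm43738 over 26.7% of its length and that of Fdft1 overlaps Ctsb over 18.3%. Likewise, Hmgcs1 overlaps Gm48342 over 12.1% and Tm7sf2 overlaps Vps51 over 12.1%. The sources used here do not give how reads in shared exons were counted, so these values are uncertain to that extent.

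Sqle, squalene epoxidase, read 1388, 1381 and 1656 in High and 689.5, 666 and 489 in Low, beside 951, 678 and 693 in Sublow and 677, 398 and 542 in Negative. Its log2 difference between High and Low was 1.27 ± 0.21 (adjusted p = 0.000459, limma), and again no library of another population reached the High libraries. Lss, which folds epoxysqualene into lanosterol, was higher in High by 0.75 ± 0.17 on the log2 scale, with 646 to 756 in High and 332 to 484 in Low (adjusted p = 0.00362). Cyp51, the lanosterol demethylase, read 1572, 1412 and 1827 in High against 858, 847 and 727 in Low, a log2 difference of 0.98 ± 0.14 (adjusted p = 0.000161). Its Sublow libraries, at 1115, 1026 and 1108, and its Negative libraries, at 884, 712 and 919, lay below every High library.

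Msmo1, the oxidase that starts removal of the remaining methyl groups, read 1501, 1418 and 1452 in High and 789.7, 849 and 456 in Low, beside 1159, 1088 and 915 in Sublow and 1095, 1004 and 1100.0 in Negative. Low stood below the 3 other populations here, and the log2 difference between High and Low was 1.11 ± 0.20 (adjusted p = 0.000772, limma). Smaller called differences between High and Low were 0.62 ± 0.18 for the sterol reductase Tm7sf2, 0.64 ± 0.20 for Sc5d, 0.51 ± 0.19 for the kinase Pmvk and 0.42 ± 0.16 for the isomerase Idi1. Pmvk overlapped between the populations, at 237 to 358 in High and 170.4 to 253 in Low. Not called were Mvk, mevalonate kinase (0.58 ± 0.24, adjusted p = 0.0668), Mvd, which makes isopentenyl diphosphate (0.70 ± 0.28, 0.0607), Nsdhl (0.42 ± 0.17, 0.0658), Hsd17b7 (0.41 ± 0.19, 0.104) and Dhcr7 (0.45 ± 0.17, 0.0529).

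Ebp, the isomerase that shifts the ring double bond late in the pathway, was the sterol enzyme called lower in High. It read 308, 233 and 271 in High and 411, 453 and 326 in Low, beside 614, 682 and 665 in Sublow and 602, 741 and 678 in Negative. High and Low did not overlap, and both lay below every Sublow and Negative library. The log2 difference between High and Low was -0.54 ± 0.16 (adjusted p = 0.0147, limma).

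Low C was the lowest library of all 12 for 11 of the 17 sterol enzymes, and Negative B for 5 of the rest, on the deposited scale. Without Low C, 8 of the 31 genes rather than 12 were called higher in High: the calls of Pmvk, Idi1, Tm7sf2 and Sc5d were lost. Other libraries also ended calls when left out one at a time: High A, High B, Low A, Sublow A and each Negative library for Pmvk (adjusted p of 0.0504 to 0.179 over these and Low C), High A, High C, Low A, Sublow A and Negative A for Idi1 (0.0567 to 0.170), High A for Tm7sf2 (0.0587 to 0.0636), and High C and Low A for Sc5d (0.0543 to 0.0839). Ebp missed the threshold without High B, Low A or Low B (0.0502 to 0.0690), and Acss2 without High A, High B or Low A (0.0501 to 0.0896). The calls of Hmgcs1, Fdps, Fdft1, Sqle, Lss, Cyp51, Msmo1, Srebf2 and Stard4 between High and Low were kept in all 22 alternatives. The enteroendocrine and tuft markers, 7 of 7 called higher in High in each list, moved with these differences, the tuft genes from 7327 to 12493 in Low to 84553 to 88226 in High. All 6 stem cell, 6 cycling, 6 goblet and 5 Paneth markers were called lower in High, and 7 stromal and endothelial genes summed to 3703 to 5583 in High and 1221 to 1851 in Low, with none of the 5 tested called. The part of these cells in the result was not tested.

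**Figure D2:**
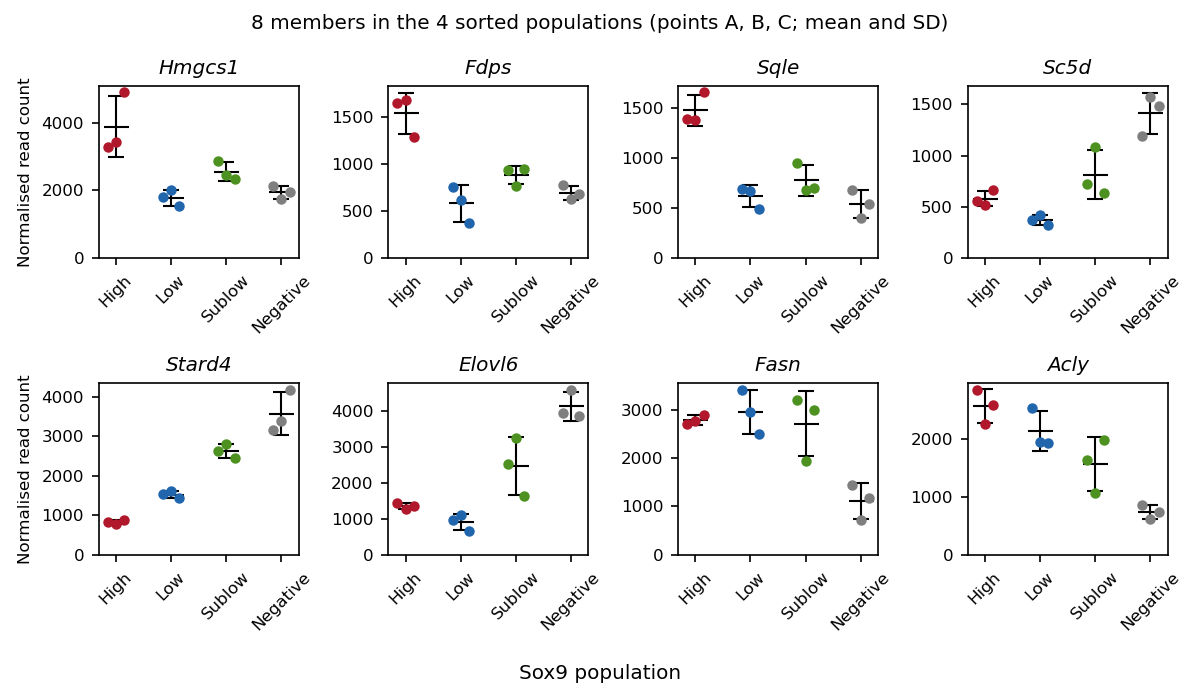
Normalised read counts of 8 genes in the 4 sorted populations, with points for libraries A, B and C, a bar for the mean and whiskers for the SD (n = 3), on axes that start at 0. Hmgcs1, Fdps and Sqle stand highest in High, Sc5d, Stard4 and Elovl6 stand highest in Negative, and Fasn and Acly are lowest in Negative.

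Negative against Low compared the cells sorted as Sox9 Negative, where all 7 enterocyte markers were called higher, with the population richest in stem cell markers. The last steps of sterol synthesis were higher in Negative, Sc5d by 3.81-fold, Dhcr7 by 1.83-fold and Ebp by 1.71-fold, while the enzymes of fatty acid synthesis were lower, Acly by 2.91-fold, Fasn by 2.74-fold and Acaca by 2.08-fold. The elongase Elovl6 went the other way and was 4.63-fold higher. Of the 31 genes, 9 were higher and 5 lower, next to 26.8% of all genes higher and 30.3% lower. The share higher is thus near the background and the share lower below it. Of the 17 sterol enzymes 5 were higher, a share also near the background, and 0 were lower, a share below it. With every library scaled to the same total 1 was higher and 7 were lower. Of the 8 acetyl-CoA and fatty acid enzymes 1 was higher and 5 were lower, or 1 and 6 with the same total.

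Sc5d, which desaturates lathosterol, read 1187, 1570.1 and 1487 in Negative, 724, 1088 and 630.0 in Sublow, 367, 420.5 and 323 in Low, and 558, 518 and 659.7 in High. Negative lay above every other library, Low lay below every other library, and the log2 difference between them was 1.93 ± 0.20 (adjusted p = 1.31e-05, limma). Dhcr7, the reductase of the last step, read 484, 464 and 533 in Negative against 293, 283 and 235 in Low, a log2 difference of 0.87 ± 0.17 (adjusted p = 0.000996). Msmo1 and the ketosteroid reductase Hsd17b7 were higher by 0.66 ± 0.20 and 0.56 ± 0.19 on the log2 scale.

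Of the 10 sterol enzymes highest in High, Msmo1 alone was called between Negative and Low. The log2 differences of the other 9 were 0.13 ± 0.17 for Hmgcs1, 0.20 ± 0.19 for Pmvk, 0.32 ± 0.22 for Fdps, -0.42 ± 0.20 for Fdft1, -0.21 ± 0.21 for Sqle, -0.12 ± 0.17 for Lss, 0.04 ± 0.14 for Cyp51, 0.17 ± 0.18 for Tm7sf2 and 0.02 ± 0.17 for Nsdhl, with overlapping libraries and adjusted p of 0.0915 to 0.944 in limma. That they missed the threshold does not show that the populations were alike, and all 9 differences were negative when every library was scaled to the same total. With that scaling 6 of the 9 were called lower in Negative: Fdft1 (adjusted p = 0.00264, limma), Lss (0.00865), Sqle (0.0163), Cyp51 (0.0168), Nsdhl (0.0283) and Tm7sf2 (0.0497). Idi1, highest in Sublow, was then called lower as well (0.0432).

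Acly, which splits citrate into cytosolic acetyl-CoA, read 856, 612 and 731 in Negative, 1639, 1072 and 1977 in Sublow, 2528, 1946 and 1928 in Low, and 2834, 2259 and 2582 in High. Every Negative library lay below every other library, and the log2 difference from Low was -1.54 ± 0.21 (adjusted p = 7.65e-05, limma). Acaca, the carboxylase that makes malonyl-CoA, read 1048, 698 and 978 in Negative against 1991, 1833 and 1777 in Low, with a log2 difference of -1.06 ± 0.18 (adjusted p = 0.000286). High, at 1852, 1700.1 and 1841, and Sublow, at 1754, 1194 and 1729, lay above every Negative library as well.

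Fasn, fatty acid synthase, read 1444, 719.7 and 1179.9 in Negative, 3195, 1942 and 3006 in Sublow, 3419, 2959.7 and 2495 in Low, and 2705, 2774 and 2901 in High. High, Low and Sublow overlapped one another, Negative lay below them all, and the log2 difference from Low was -1.45 ± 0.25 (adjusted p = 0.000308, limma). Acss2, which makes acetyl-CoA from acetate, was highest in Low, at 915 to 1029, against 531 to 612 in Negative, 552 to 661 in Sublow and 704 to 754 in High. It was lower than in Low in each of the other populations, by -0.76 ± 0.12 in Negative, -0.66 ± 0.12 in Sublow and -0.37 ± 0.12 in High.

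Elovl6, which lengthens palmitate to stearate, read 3967, 4593 and 3858 in Negative, 2544, 3252 and 1635 in Sublow, 967, 1103 and 660.1 in Low, and 1439, 1272 and 1358 in High. The 4 populations did not overlap, and the order was Low, High, Sublow, Negative, although the step from Low to High was not called (0.61 ± 0.24, adjusted p = 0.0551, limma). The log2 difference between Negative and Low was 2.21 ± 0.24 (adjusted p = 1.43e-05).

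The stearoyl-CoA desaturases, which put the double bond into stearate, were very unequal. Per kilobase of exon, Scd1 read 2.28 to 3.43 normalised counts in the population means and Scd2 65.0 to 324. Scd2 read 1717, 1450.3 and 2149.8 in High and 1615, 607 and 743 in Low, beside 1649, 353 and 792 in Sublow and 440.4, 165 and 461 in Negative. Library A stood far above B and C in Low and in Sublow, so the spread within populations was wide. Scd2 was lower in Negative than in Low by -1.48 ± 0.54 on the log2 scale (adjusted p = 0.0333, limma), a call that ended without Low A or Negative B (adjusted p of 0.143 and 0.145). Scd1 read 5.45 to 28.5 over the 12 libraries, beside a floor of 3 reads that is worth 2.38 to 4.61 normalised counts, and was called in no comparison by limma. Scd1 and Scd2 are close relatives, and Acat2 has a near copy, Acat3, so reads could be split between them. Acat2, the cytosolic thiolase, read 155 to 263 and was called in no pairwise comparison.

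The normalised totals bear on this comparison. When every library was scaled to the same total, the median log2 difference of all genes moved from -0.05 to -0.60, and the share of calls that were higher moved from 46.9% to 23.3%. The calls of Msmo1, Hsd17b7, Ebp, Dhcr7 and Srebf1 were then lost, leaving 4 genes higher, Sc5d, Insig2, Stard4 and Elovl6, and 15 lower. Their log2 differences, 1.93, 1.31, 1.22 and 2.21 as deposited, stayed positive under each scaling tried. Hsd17b7 also missed the threshold without Low C, Negative A or Negative B (adjusted p of 0.0553 to 0.102).

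**Figure D3:**
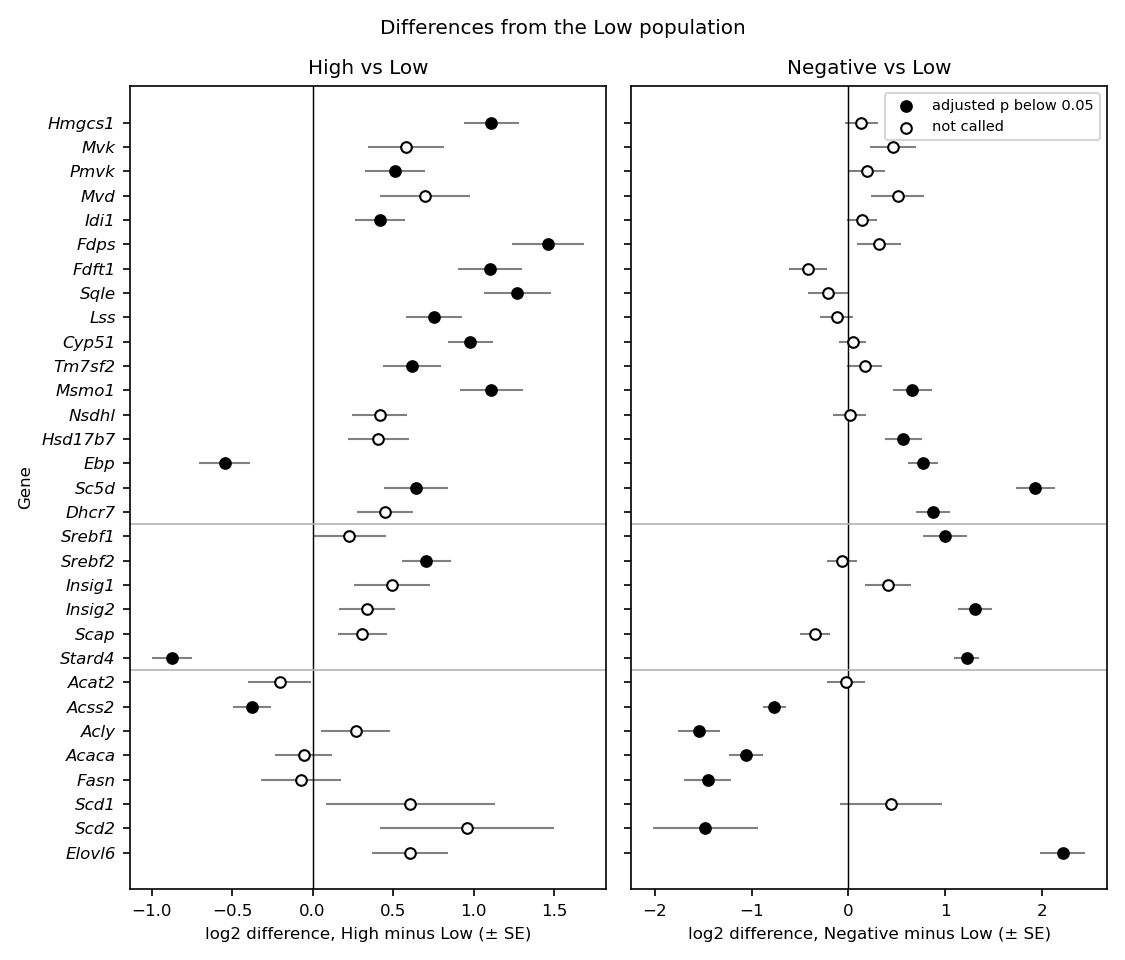
The log2 difference of each of the 31 genes between High and Low (left) and between Negative and Low (right), with bars for the SE of the limma fit. Filled points are called at an adjusted p below 0.05: most filled sterol enzymes lie right of 0 at left, while at right Sc5d, Elovl6, Insig2 and Stard4 lie farthest right and Acly, Scd2 and Fasn farthest left.

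Among the regulators, Srebf2 and Srebf1 were highest at opposite ends of the reporter range. Srebf2 read 3098, 3179 and 3355 in High and 2307, 2118 and 1557 in Low, beside 2397, 2086 and 2063 in Sublow and 1883, 1670.1 and 2120.1 in Negative. Every High library lay above all others, and the other 3 populations overlapped. Its log2 difference was 0.71 ± 0.15 from Low (adjusted p = 0.00270, limma), 0.56 ± 0.15 from Sublow and 0.77 ± 0.15 from Negative.

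Srebf1 read 1747, 2159 and 1315 in Negative, 1329, 1354 and 847 in Sublow, 1037, 903 and 664 in Low, and 1003, 1082 and 922 in High. Negative lay above every Low and High library but overlapped Sublow. Its log2 difference between Negative and Low was 0.997 ± 0.229 (adjusted p = 0.00259, limma), and between High and Negative -0.77 ± 0.23 (adjusted p = 0.0126). The latter ended without Negative B (adjusted p = 0.0584), and both were lost with the same total per library, with adjusted p of 0.0920 and 0.277.

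The ratio of Srebf1 to Srebf2 is free of library scaling, apart from the pseudocount of 1 added to each count. The mean log2 ratio was -1.68 ± 0.16 (SD, n = 3) in High and -1.20 ± 0.04 in Low, beside -0.92 ± 0.34 in Sublow and -0.14 ± 0.53 in Negative. An exact permutation test of the 4 populations over all 369600 assignments gave p = 0.000909, or 0.00273 adjusted over the 3 ratios tested. High lay below every other library, at -1.86 to -1.55, and Negative above every other, except that Negative C, at -0.69, lay below Sublow B, at -0.62.

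Insig2 read 409, 491 and 395 in Negative, 251, 377 and 265 in Sublow, 160.1, 186 and 172 in Low, and 226, 199.95 and 229.8 in High. The populations did not overlap, and the log2 difference between Negative and Low was 1.31 ± 0.18 (adjusted p = 5.99e-05, limma). Insig1, the other Insig gene and a known SREBP target, read 369 to 481 in Low, 445 to 691 in Negative, 432 to 838 in Sublow and 528 to 707 in High, and was called in no pairwise comparison. The log2 ratio of Insig1 to Insig2 was 1.46 ± 0.22 in High and 1.31 ± 0.19 in Low, beside 1.09 ± 0.56 in Sublow and 0.41 ± 0.31 in Negative, with an exact permutation p of 0.0364, or 0.0546 adjusted, which missed the threshold. Sublow A, at 1.73, was the highest of the 12 libraries while Sublow B and C read 0.84 and 0.70, and without Sublow A the adjusted p was 0.00692. The ratio of Scd1 to Scd2 gave an exact permutation p of 0.201, and 0.201 adjusted.

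**Figure D4:**
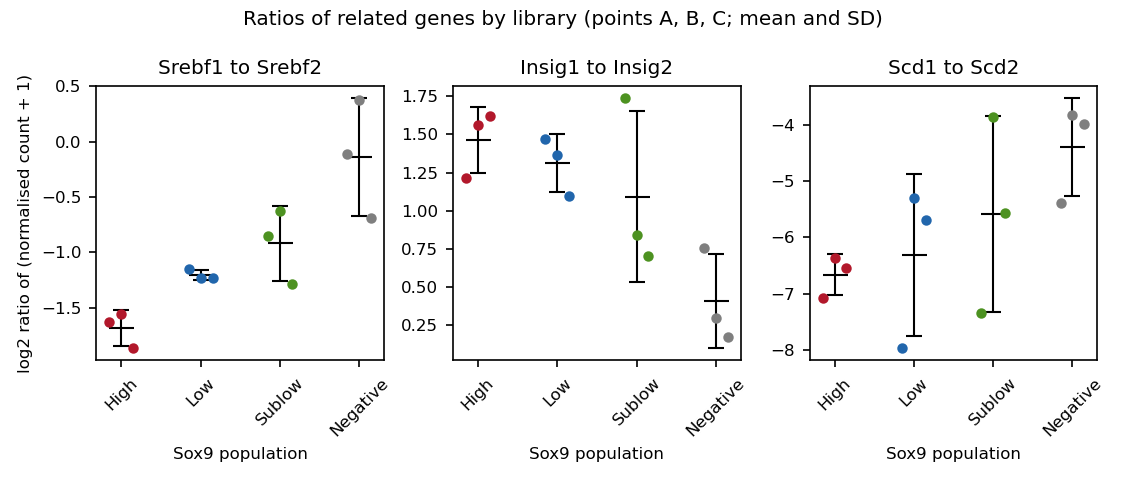
The log2 ratio of (normalised count + 1) of Srebf1 to Srebf2, Insig1 to Insig2 and Scd1 to Scd2 in each library, with bars for the mean and whiskers for the SD (n = 3 a population). The Srebf1 to Srebf2 ratio runs from -1.68 in High to -0.14 in Negative, Sublow A stands apart for the Insig genes, and the Scd ratios spread widely within Low and Sublow.

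Stard4, a soluble carrier that moves cholesterol between membranes, was ordered through the 4 populations. It read 832, 787 and 873 in High and 1539, 1602 and 1426 in Low, beside 2614, 2791 and 2443 in Sublow and 3147, 3394 and 4175 in Negative. No populations overlapped, and each step was called: High against Low by -0.87 ± 0.13 (adjusted p = 0.000169, limma), Sublow against Low by 0.78 ± 0.13 (0.00132) and Sublow against Negative by -0.44 ± 0.13 (0.0239). The last step was not called with the same total per library, where it was -0.15, nor without Sublow A, Sublow C, Negative B or Negative C (adjusted p of 0.0585 to 0.0821). From High to Negative, Stard4 differed 4.27-fold, and this call was kept in all alternatives. Scap was highest in High, at 881 to 1048, and lowest in Negative, at 567 to 664, a log2 difference of 0.65 ± 0.15 (adjusted p = 0.00285). Exon annotation of Scap overlaps 5830462I19Rik over 13.2% of its length.

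High and Negative, the ends of the reporter range, differed in 20 of the 31 genes. In High 14 were higher and 6 lower, next to 28.8% of all genes higher and 25.8% lower. The sterol enzymes Hmgcs1, Fdps, Fdft1, Sqle, Lss, Cyp51 and Tm7sf2 were higher in High, Fdft1 by 2.87-fold and Sqle by 2.79-fold, together with Srebf2, Scap, Acss2, Acly, Acaca, Fasn and Scd2. Scd2 differed most, by 2.44 ± 0.54 on the log2 scale (adjusted p = 0.00200, limma). Ebp (-1.32 ± 0.16), Sc5d (-1.29 ± 0.20), Srebf1, Insig2 (-0.97 ± 0.18), Stard4 (-2.09 ± 0.13) and Elovl6 (-1.61 ± 0.24) were lower in High. With the same total per library the median log2 difference of all genes moved from 0.03 to 0.50 and the share of calls that were higher from 52.8% to 74.1%. Tm7sf2 (0.45 ± 0.18, adjusted p = 0.0493) was lost without High A, High B, High C, Low A, Sublow A or any Negative library, at adjusted p of 0.0522 to 0.167, and Acss2 without Negative C (0.0517). These comparisons share the High, Low or Negative libraries with those above, so they are no independent evidence.

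Sublow stood between Low and Negative for part of these genes. Against Low, 10 of the 31 genes were higher and 1 was lower, next to 13.3% and 10.7% of all genes. Elovl6 (1.42 ± 0.24, adjusted p = 0.00153, limma), Sc5d (1.10 ± 0.20, 0.00256), Stard4, Insig2 (0.76 ± 0.18, 0.00844) and Ebp (0.73 ± 0.16, 0.00607) were higher and Acss2 lower. Hmgcs1 (0.53), Mvk (0.72), Cyp51 (0.42), Msmo1 (0.64) and Dhcr7 (0.57) were higher at adjusted p of 0.0333 to 0.0460. All 5 of these were lost without Low C, without Sublow A and without Sublow B, and each of the 12 libraries ended at least 1 of them when left out (adjusted p of 0.0504 to 0.171). They were also lost with the same total per library, where the median log2 difference of all genes moved from -0.06 to -0.33 and the share of calls that were higher from 55.3% to 28.6%.

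Against Negative, 3 of the 8 acetyl-CoA and fatty acid enzymes were higher in Sublow and 1 was lower. Higher were Acly by 1.06 ± 0.21 (adjusted p = 0.00637, limma), Acaca by 0.78 ± 0.18 (0.0102) and Fasn by 1.31 ± 0.25 (0.00490) on the log2 scale, and all 3 calls were lost with only the 6 libraries compared (0.0740, 0.0853 and 0.0731). In all 4 genes were higher, next to 15.1% of all genes, and 4 were lower, next to 12.7%. Fdft1 was the other gene higher (0.58 ± 0.20, 0.0464), and Sc5d (-0.83 ± 0.20), Insig2 (-0.55 ± 0.18), Stard4 and Elovl6 (-0.79 ± 0.24) were lower. Fdft1 was lost in 9 of the 12 fits that left out a library, all but those without Low C, Sublow B or Negative A, with adjusted p of 0.0540 to 0.173. Sc5d was lost without Negative B (0.0590), Insig2 without High A, Sublow A, Sublow C or any Negative library (0.0520 to 0.142), and Stard4 (0.0585 to 0.0821) and Elovl6 (0.0516 to 0.102) each without Sublow A, Sublow C, Negative B or Negative C. Without Negative B limma called 3 higher and 0 lower, beside 4 higher and 4 lower at an unadjusted p below 0.05, and edgeR on all libraries called 2 lower. The share of calls over all genes that were higher was 54.4%, and moved to 86.3% with the same total per library, with the median of all genes moving from -0.04 to 0.23, and to 67.2% with edgeR. The enterocyte markers of Sublow spread from 61517 to 438027, and markers called higher in Sublow than in Negative were 6 of 6 goblet, 7 of 7 enteroendocrine, 5 of 6 cycling, 5 of 6 stem cell and 2 of 7 tuft genes, while 3 of 5 Paneth and 2 of 7 enterocyte genes were lower. Their part in these values was not tested.

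High was higher than Sublow for 9 of the 31 genes and lower for 3, next to 26.7% and 25.3% of all genes. The higher genes were Fdft1 (0.94 ± 0.20), Sqle (0.94 ± 0.21), Fdps (0.80 ± 0.22), Acly (0.75 ± 0.21), Lss (0.62 ± 0.17), Tm7sf2 (0.62 ± 0.18), Hmgcs1 (0.58 ± 0.17), Cyp51 (0.56 ± 0.14) and Srebf2. Hmgcs1 missed the threshold without High C (adjusted p = 0.0543, limma) and Tm7sf2 without High A (0.0541). Stard4 (-1.65 ± 0.13), Ebp (-1.28 ± 0.16) and Elovl6 (-0.81 ± 0.24) were lower. With the same total per library the median log2 difference of all genes moved from 0.03 to 0.22 and the share of calls that were higher from 51.3% to 63.2%.

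Other genes of lipid metabolism, 76 in 8 lists, were tested in the same fit. Their counts between Negative and Low stand next to 26.8% of all genes higher and 30.3% lower. Genes that take up, store and export lipid were mostly higher. Of 11 genes of triglyceride synthesis 9 were higher and 2 lower, among them Mogat2 (5.02), Dgat2 (4.16) and Gpat3 (3.36 on the log2 scale). Of 9 genes of the LXR system, which answers excess sterol, 7 were higher and 2 lower, led by the sterol exporters Abcg5 (3.33) and Abcg8 (3.22) and by Nr1h3 (2.29), which encodes LXRα. Of 8 genes of sterol uptake, trafficking and esterification 5 were higher and 1 lower, led by Npc1l1 (4.11), the sterol importer of the brush border, the lysosomal lipase Lipa (3.76) and the esterifying enzyme Soat2 (3.39). With the same total per library the counts of the triglyceride and LXR lists did not move, and the uptake list had 4 higher and 2 lower. These lists moved with the enterocyte markers, and the part of those cells in them was not tested.

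The electron donors of the sterol enzymes gave 4 higher and 2 lower of 6 between Negative and Low, with Cyb5r3 at 3.06, Cyb5b at 2.55 and Cyb5a at 2.32 on the log2 scale. Sc5d and Msmo1 draw electrons through cytochrome b5. Of 9 genes of SREBP processing and sterol-regulated degradation 5 were called, all higher, among them Pgrmc1 (1.66), Erlin1 (1.54) and Erlin2 (1.08), and 3 were higher and 1 lower with the same total. Of 7 genes that supply NADPH and cytosolic acetyl-CoA or steer acetyl-CoA carboxylation 5 were higher and 2 lower, with Idh1 at 2.57 and Me1 at 2.26 higher and Acacb, the mitochondrial carboxylase, lower at -3.78. The desaturases Fads1 (-3.05) and Fads2 (-2.32) were lower and the acyl-CoA synthetase Acsl5 (3.72) higher among 13 genes of elongation, desaturation and activation, of which 2 were higher and 6 lower, or 1 and 9 with the same total. Of 13 isoprenoid genes, 4 were higher and 2 lower, with Icmt at 0.80, Coq2 at -0.68 and Nus1 at 0.56. The share higher is near the background and the share lower below it, and with the same total none was higher and 7 were lower.

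Between High and Low, next to 23.6% of all genes higher and 19.3% lower, most of these lists held calls in both directions. The high-density lipoprotein receptor Scarb1 was higher by 2.37 and Osbp by 0.37 on the log2 scale, the calls in 2 of 8 uptake genes, and Osbp was not called with the same total (adjusted p = 0.0753, limma). Of 9 LXR genes 3 were higher and 1 lower, with Abcg1 at 1.88, Mylip at 1.85 and Abca1 at 1.24. Lbr, which like Tm7sf2 encodes a reductase acting just after Cyp51, was lower in High by -2.00 ± 0.23 (adjusted p = 3.89e-05, limma) while Tm7sf2 was higher by 0.62 ± 0.18. Por, which passes electrons to Cyp51 and Sqle, was higher by 1.32 ± 0.21 (adjusted p = 0.000416). In that list of 6 genes 3 were higher and 2 lower.

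Of the 7 NADPH and acetyl-CoA genes, 2 were higher in High than in Low and 1 lower, with Acacb at 2.13 and Mid1ip1, an activator of acetyl-CoA carboxylase, at 1.27. Of 13 genes of elongation, desaturation and activation 3 were higher and 4 lower, with Acsl4 at 2.56, Fads2 at -2.46 and Fads1 at -1.88. Triglyceride genes gave 2 higher and 3 lower of 11, with Gpam at -1.14, Gpat3 at -1.07 and Lpin1 at 1.02. Isoprenoid genes gave 3 higher and 4 lower of 13, with Pdss1, which makes the ubiquinone tail, at -2.03, Rabggtb at -0.79 and Icmt at 0.55. The counts of the NADPH, elongation, triglyceride and isoprenoid lists were small, and several of their shares were near the background.

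Levels were set side by side between genes per kilobase of exon, the length being the union of all annotated exons of a gene. The transcripts present may be shorter than that union, by a different factor in each gene. The order of genes below therefore depends on the annotation. In High, Hmgcs1 was the highest of the sterol enzymes at 845 ± 197 (SD, n = 3) normalised counts per kilobase, followed by Fdft1 at 367 ± 10.3, Fdps at 365 ± 52.0 and Cyp51 at 363 ± 47.5, which did not differ beyond their spread. Hsd17b7, at 51.8 ± 9.88, was the lowest. In Negative, Hmgcs1 stood at 424 ± 41.2, followed by Ebp at 292 ± 30.2 and Sc5d at 291 ± 41.4. Among the fatty acid enzymes, Acly led in High at 485 ± 54.5, and Elovl6 in Negative at 644 ± 61.7, where Fasn read 102 ± 33.5. Stard4 was the highest regulator or carrier in Negative, at 639 ± 96.1, and Srebf2 in High, at 447 ± 18.3.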

How the data were processed

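The deposited values are a signal per gene and library: read counts that the authors divided by a size factor for each library, as the table's own values show, since 100% of them are whole multiples of 1 step per library (tolerance 0.01). Per the labels' protocols, each library came from 12000 sorted cells, was cleared of ribosomal RNA, was built with Clontech's Total RNA Pico kit (SMARTer v2) and was read from a single end. For aligner, counter, genome build, annotation and size factor program: not given in the sources used here. Depth was 11630042 to 17046944 reads a library, and 3 reads, the floor used for detection, were worth 2.38 to 4.61 normalised counts. No values of other samples were in the table.

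From these values log2(value + 1) was computed for genes with at least 10 in at least 3 libraries (16577 of 30265), and limma 3.58.1 (R 4.3.3, trend, no block) was fitted once to all 12 libraries, with Benjamini-Hochberg adjustment over all genes tested. Log2 differences are on that scale and understate changes of low genes. The 3 ratios were tested by exact permutation over libraries. The alternatives were another pseudocount, filter or scaling, a replicate block, the 6 libraries compared alone, leaving out each library, and edgeR 4.0.16 and DESeq2 1.42.0 on recovered reads. A fit without the Sublow libraries was added after seeing the data. The scripts were tested on simulated data. The genes and lists were chosen with earlier results of these data known. All 31 genes are accounted for, and genes of other lists are named as the 3 with the largest difference among those called without overlap, except that some are not reported here. Positions and exon lengths come from GENCODE vM21 (GRCm38), which holds 30146 of the symbols and all 31 genes.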

Additional observations from a re-analysis of the deposited data

How the results depend on the processing

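Of 80 calls of the 31 genes in 6 comparisons, 50 were kept in all 22 other settings tried, 30 were lost in at least 1 and none turned round. Leaving out a library ended 23 calls in at least 1 fit, the same total per library 16 and edgeR 3, while DESeq2 ended none. Of 106 values that were not called, 43 changed sign in some alternative and 48 were called in some. With the same total per library, Sublow against Low gave 5 higher and 2 lower, Negative against Low 4 and 15, and Sublow against Negative 11 and 1. Without the filter, Sublow against Low gave 5 higher. With only the 6 libraries compared, Sublow against Low gave 5 higher and 2473 genes in all, and Sublow against Negative gave 0 higher and 0 lower of the 31 (7 and 4 at an unadjusted p below 0.05) and 46 genes in all. With edgeR on the recovered reads, Sublow against Negative gave 2 lower, and all genes called numbered 7357 in High against Low, 4169 in Sublow against Low, 9460 in Negative against Low, 9066 in High against Negative, 3995 in Sublow against Negative and 8770 in High against Sublow. Leaving out 1 library, High against Low gave 1 to 3 lower. Sublow against Low gave 5 to 11 higher, 1 to 2 lower and 2500 to 5603 genes in all. Sublow against Negative gave 0 to 4 lower and 1729 to 6239 genes in all, and High against Sublow 3 to 5 lower. The adjusted p of the Insig1 to Insig2 ratio ran from 0.00692 to 0.170 with 1 library left out. The cause was not tested where a count moved, apart from fewer libraries. With the replicate block no call was lost and 26 were gained, with 2 lower in Sublow against Low, 7 higher in Sublow against Negative and 5 lower in High against Sublow. The log2 values were also taken as deviations from the population mean of each gene. These deviations were correlated across genes between libraries of different populations. Libraries with the same letter correlated at 0.0521 to 0.341 (mean 0.156, 18 pairs) and those with different letters at a mean of -0.0781 (36 pairs). Deviations cancel out within a population, which ties these means to each other, so the negative mean is no separate evidence. On these deviations 12 of 12 libraries correlated best with their own letter. That is a hint from the data and not the design, so the letters were not treated as pairing. Depth limits Scd1 most, at 5.45 to 28.5 normalised counts.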
